A study of Homo sapiens with 6 samples.

Results

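The aminoacyl tRNA synthetase genes were examined in RNA recovered with CELF1 (also named CUGBP1) from melanoma cells. The set held 35 genes, chosen by name, of the 13140 protein-coding genes with at least 1 exonic bin in the deposited peak lists. It comprised 19 genes of enzymes that charge tRNAs in the cytosol and 16 genes of the mitochondrial enzymes. GARS1 and KARS1, which each serve both compartments, were counted with the cytosolic enzymes.

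CELF1 was immunoprecipitated with an anti-CUGBP1 antibody from UACC-62 and SK-Mel-103, established lines of human melanoma, after formaldehyde fixation, with no drug or genetic treatment named in the labels. RNA recovered in this way (IP) and RNA of the lysate (input) were both sequenced. Of 3 IP and 3 input samples, UACC-62 gave replicates 1 and 3 of each kind, called biological duplicates by the submitters, and SK-Mel-103 gave only replicate 1 and so had no spread of its own. The authors called bins of 20 bp with IP signal over the input as covariate, and the lists hold only bins that passed, so that every value below is conditional on that selection.

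Aminoacyl tRNA synthetases attach each amino acid to its tRNA and thereby supply the ribosome with charged tRNAs. Cytosolic and mitochondrial translation use mostly separate enzymes, both encoded in the nucleus, and the mitochondrial ones are imported after synthesis. Several cytosolic synthetases are held together in a multisynthetase complex with the scaffold proteins AIMP1, AIMP2 and EEF1E1. CELF1 is an RNA-binding protein of the nucleus and cytoplasm known for binding GU-rich elements, often in 3′ UTRs, where it acts on mRNA decay and translation.

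Depth was similar across samples, with 780750 to 862731 listed bins and 10958459 to 14436573 IP reads per list. Of 8 melanocyte lineage markers, 3 had input reads in listed bins of SK-Mel-103 and 6 in those of either UACC-62 replicate. Their summed input levels were 24.3, 514 and 447 RPKM, that is, input reads per kb of exon and per 1000000 listed input reads. Of 5 markers of other cell types, 0, 1 and 0 had such reads, at a summed level of at most 0.0379 RPKM. PECAM1, among these 5, was not among the annotated protein-coding genes and could not be assessed. Input is known only for listed bins, so a marker without reads there need not be absent from the input. The samples were bulk lysates, in which fewer cells of a type and less RNA per cell cannot be told apart.

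A peak was taken as a bin with more than 30 IP reads, the study's own filter, and a common peak as one found at the same position and strand in all 3 lists. Only 1 of the 35 synthetase genes, LARS1, had a common peak, against 13.1% of all protein-coding genes. LARS1 charges leucine tRNA and is also known as a leucine sensor of the mTORC1 pathway. Its common bin, in the 3′ UTR on the minus strand at chr5:145493481-145493500 (GRCh37), held 63, 35 and 72 IP reads beside 161, 119 and 117 input reads. These and all later triplets give SK-Mel-103 replicate 1 first, then replicates 1 and 3 of UACC-62. Scaled to the totals of the lists, log2 IP over input of that bin was -1.71, -1.89 and -1.39. The bin therefore passed the caller and the read filter in all 3 samples with less IP than scaled input.

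The sequence of the LARS1 bin is given as the only common peak of the set, followed by the bins of the next 4 cytosolic genes in order of their lowest IP read count over the 3 samples, by YARS1 for its letters, and by the corresponding bin of IARS2, the best covered mitochondrial gene. The bins other than that of LARS1 were picked after their values had been seen. Each is given 5′ to 3′ on the transcript strand as DNA of GRCh37, with capitals marking TGT, the core of GU-rich elements, and AATAAA, the canonical polyadenylation signal.
LARS1 3′ UTR, chr5:145493481-145493500, minus strand: ggacctAATAAAtttttttt
KARS1 3′ UTR, chr16:75661661-75661680, minus strand: cagccatcagaagagagaca
WARS1 3′ UTR, chr14:100800841-100800860, minus strand: ctcttaagacccactcTGTt
GARS1 3′ UTR, chr7:30673561-30673580, plus strand: catTGTgattactcccaggg
IARS1 3′ UTR, chr9:94972881-94972900, minus strand: cacacttaaccttagacacc
YARS1 3′ UTR, chr1:33240841-33240860, minus strand: AATAAAaTGTctgaacaagg
IARS2 3′ UTR, chr1:220321321-220321340, plus strand: atcatcttttgactcTGTat

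The KARS1 bin, of the enzyme for lysine, held 90, 30 and 62 IP reads and 356, 303 and 234 input reads. It missed the common peak by a single read in UACC-62 replicate 1. The WARS1 bin, of the enzyme for tryptophan, held 29, 35 and 44 IP reads and missed it by its SK-Mel-103 count. The GARS1 bin, of the enzyme for glycine, held 40, 27 and 55 IP reads, and the IARS1 bin, of the enzyme for isoleucine, 46, 26 and 49. The IARS2 bin passed 30 IP reads in both UACC-62 samples and held 24 in SK-Mel-103, and its log2 IP over input was 0.18, -2.16 and -0.96.

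Letters of the bins were compared on the transcript strand over all bins found in the 3 lists. TGT was present in 27.7% of the 220 bins in 3′ UTRs of cytosolic synthetases and in 23.3% of the 30 in 3′ UTRs of mitochondrial ones, beside 37.2% of all 182102 such bins. In coding regions TGT was present in 25.4% of 684 cytosolic, 35.5% of 62 mitochondrial and 23.8% of all 75314 bins. The reverse complement ACA, as the other strand, was found in 29.5% of the cytosolic and 25.7% of all 3′ UTR bins. Of the single best covered bin of each of the 30 genes that had a bin in all 3 lists, 8 contained TGT and 4 AATAAA. The 4 with AATAAA were those of LARS1, YARS1, AARS1 and CARS1, all in the 3′ UTR. AATAAA was present in 12 of the 220 cytosolic 3′ UTR bins (5.45%) and in 1.51% of all 3′ UTR bins, and its reverse complement TTTATT in 1.36% and 1.92%. The AATAAA search was made after these bins had been read, and the shares are descriptive.

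Peaks in single lists were far more frequent than common ones. A bin of more than 30 IP reads occurred in at least 1 list in 14 of 19 cytosolic genes and in 1 of 16 mitochondrial genes, against 31.1% of all protein-coding genes. The synthetase genes held 92, 6 and 71 such bins, in 10, 4 and 13 genes. Over all 13140 protein-coding genes, 2984, 2481 and 3369 had such a bin. IARS1, with 29, 0 and 23, had the most of any member in the first and last sample. Of the 92, 6 and 71 bins, 87, 6 and 71 had less IP than scaled input. The share over the bins of all genes with more than 30 IP reads is not given here. This count is therefore not read as a trait of the synthetases. IARS2 was the only mitochondrial gene with such bins, with 0, 3 and 6.

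**Figure D1:**
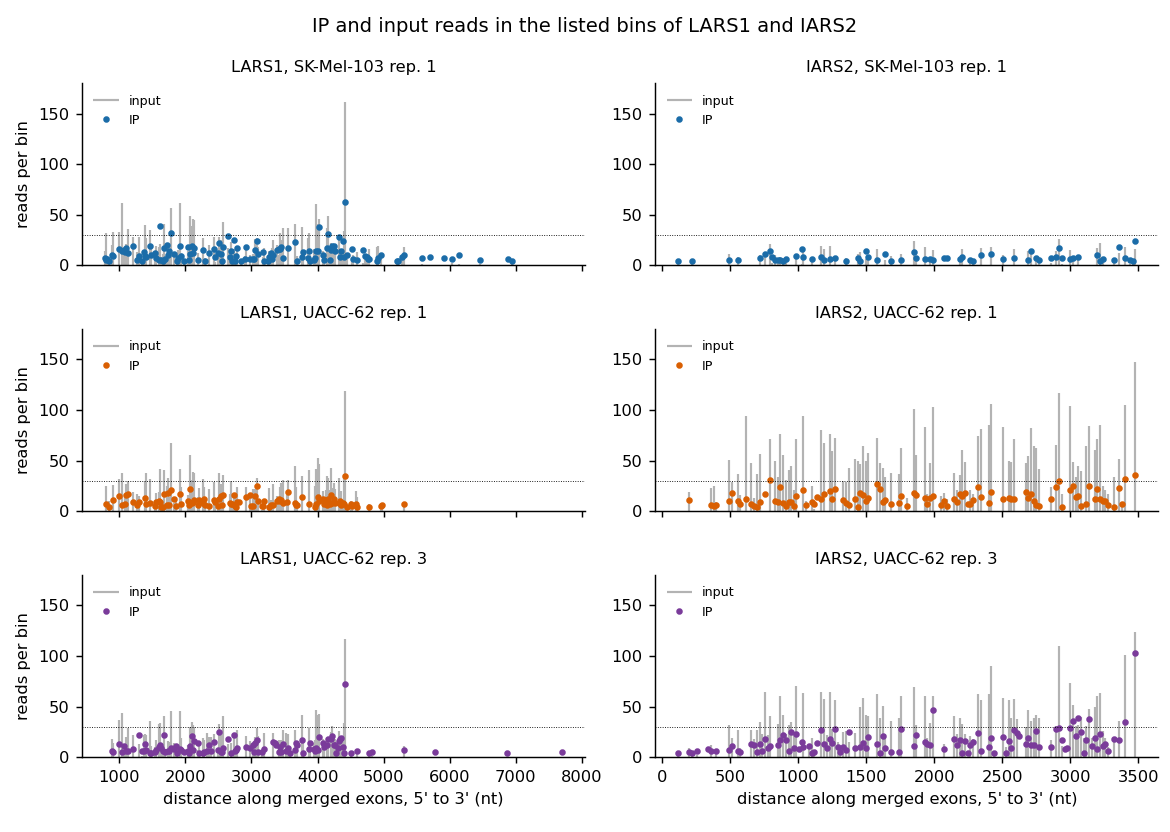
IP reads (coloured points) and recovered input reads (grey lines) in each listed bin of LARS1 (left) and IARS2 (right), plotted against distance along the merged exons from the 5′ end in nt, with 1 row per sample and a dotted line at 30 IP reads. The common LARS1 bin, with 63, 35 and 72 IP reads, stands at the same place in all 3 samples, and IARS2 has more input in both UACC-62 samples than in SK-Mel-103.

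For each gene, IP and input reads were summed over its listed exonic bins, divided by the total of their list after adding 1 read, and expressed as log2 IP over input. All 19 cytosolic synthetase genes lay below 0 in all 3 samples, against 43.8% of the 10039 protein-coding genes with bins in all 3 lists, and 17 of 19 lay below -1, against 13.5%. The cytosolic median was -1.33, -1.98 and -1.85 (UACC-62 mean -1.92 ± 0.09, SD, n = 2). The median of all genes was -0.07, -0.42 and -0.21. The highest cytosolic gene reached -0.51, -0.97 and -0.65. Even the top of the cytosolic range thus lay below the median of all genes in each sample. These comparisons take no account of input level, whose median was 37.5, 39.4 and 56.1 RPKM for cytosolic and 5.78, 4.99 and 5.73 for all genes. A comparison with genes of like input level is given below.

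Of the cytosolic enzymes, TARS1, KARS1, GARS1 and RARS1 had the lowest means over the samples. TARS1, which charges threonine tRNA, had 1698, 577 and 1066 IP reads beside 4422, 3361 and 3397 input reads, giving log2 IP over input of -1.75, -2.70 and -2.37. Its exact 95% intervals were -1.84 to -1.67, -2.83 to -2.57 and -2.47 to -2.27. As elsewhere, these cover counting error only, since reads without molecular identifiers are not independent molecules. KARS1 had log2 values of -1.73, -2.39 and -2.29. GARS1 had -1.75, -2.22 and -2.41. RARS1, the arginine enzyme, had -1.54, -2.55 and -2.27. In all 4 genes, as in every other cytosolic gene, SK-Mel-103 gave the least negative value.

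The 4 highest cytosolic genes were FARSA, CARS1, VARS1 and MARS1. FARSA encodes the alpha subunit of the phenylalanine enzyme, and had 581, 395 and 373 IP reads beside 637, 727 and 360 input reads, giving -0.51, -1.04 and -0.65. Its partner FARSB, the beta subunit of the same tetrameric enzyme, lay lower in every sample, at -1.49, -2.15 and -1.96. CARS1, for cysteine, had -0.81, -0.97 and -1.13. VARS1, for valine, had -1.07, -1.36 and -1.54. MARS1, for methionine, had -1.08, -1.38 and -1.66. None of these ranges reached 0.

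LARS1 had 1622, 1041 and 1123 IP reads beside 2696, 2585 and 2205 input reads, giving -1.11, -1.47 and -1.67. The only gene with a common peak thus lay below scaled input as a whole and in the upper part of the class, with a mean of -1.42. The means of the other cytosolic genes were -1.97 for IARS1, -1.94 for EPRS1 (glutamate and proline), -1.88 for SARS1 (serine), -1.86 for NARS1 (asparagine) and -1.72 for HARS1 (histidine). They were -1.63 for AARS1 (alanine), -1.48 for WARS1, -1.46 for QARS1 (glutamine) and -1.40 for YARS1 (tyrosine). Neighbours among these 9 genes differed by less than the spread over the samples.

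The mitochondrial enzymes lay closer to input. Their median over the 15 genes with bins in all 3 lists was -0.11, -0.85 and -0.35 (UACC-62 mean -0.60 ± 0.35, SD, n = 2). Of the 15, 8 lay below 0 in all 3 samples, near the 43.8% of all genes, and 1, YARS2, below -1, against 13.5%. Above 0 in all 3 lay 2 of the 15, SARS2 and VARS2, against 31.2% of all genes. Between 9 and 11 of the 15 lay above every cytosolic gene of the same sample, the others falling within the cytosolic range. The median of all genes, at -0.07, -0.42 and -0.21, also lay above every cytosolic gene. Most genes thus did so too, and this was not particular to the mitochondrial class.

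The lowest mitochondrial means were those of IARS2, YARS2, RARS2 and CARS2. IARS2, for isoleucine, had 492, 1333 and 1742 IP reads beside 655, 5128 and 3973 input reads, giving -0.79, -2.10 and -1.89, a range like that of the cytosolic genes. YARS2, for tyrosine, had -1.42, -1.71 and -1.39. RARS2, for arginine, had -1.14, -1.53 and -0.88, and CARS2, for cysteine, -1.24, -1.72 and -0.57. In IARS2 the SK-Mel-103 value was above both UACC-62 values, whereas in the other 3 it fell between them.

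The highest mitochondrial means were those of VARS2, SARS2, WARS2 and LARS2, all with few reads. VARS2, for valine, had 34, 22 and 22 IP reads beside 9, 14 and 6 input reads, giving 1.43, 0.46 and 1.02. Its 95% intervals were 0.45 to 2.79, -0.54 to 1.57 and -0.17 to 2.77, and thus held 0 in both UACC-62 samples. All 15 of its bins also lay in exons of a lncRNA annotated on the same strand, so that its reads cannot be told apart from that gene's. SARS2, for serine, had 37, 113 and 48 IP reads beside 24, 63 and 20 input reads, giving 0.23, 0.68 and 0.52. The SARS2 intervals were -0.53 to 1.06, 0.23 to 1.15 and -0.21 to 1.40, and held 0 in SK-Mel-103 and UACC-62 replicate 3. Of the 25 SARS2 bins, 16 were shared with another protein-coding gene of the same strand. The SARS2 mean became -0.20 over 3′ UTR bins alone, of which each sample had 2. It became -0.41 over bins found in all 3 lists, of which it had 1. With such bins the median of all genes was -0.47, -0.89 and -0.72. WARS2, for tryptophan, had -0.18, 0.13 and -0.14, and LARS2, for leucine, -0.05, -0.34 and 0.08. In both, the 95% intervals held 0 in all 3 samples.

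The means of the remaining mitochondrial genes were -0.86 for NARS2 (asparagine), -0.76 for HARS2 (histidine), -0.41 for AARS2 (alanine), -0.33 for MARS2 (methionine) and -0.32 for FARS2 (phenylalanine). They were -0.30 for TARS2 (threonine) and -0.17 for EARS2 (glutamate). PARS2, for proline, had 1, 0 and 5 listed bins with 4, 0 and 21 IP reads, too few for a ratio in every sample. In HARS2, 5 of 50 bins were shared with ZMAT2 and in EARS2 1 of 94 with GGA2. No bin of the other members was shared.

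**Figure D2:**
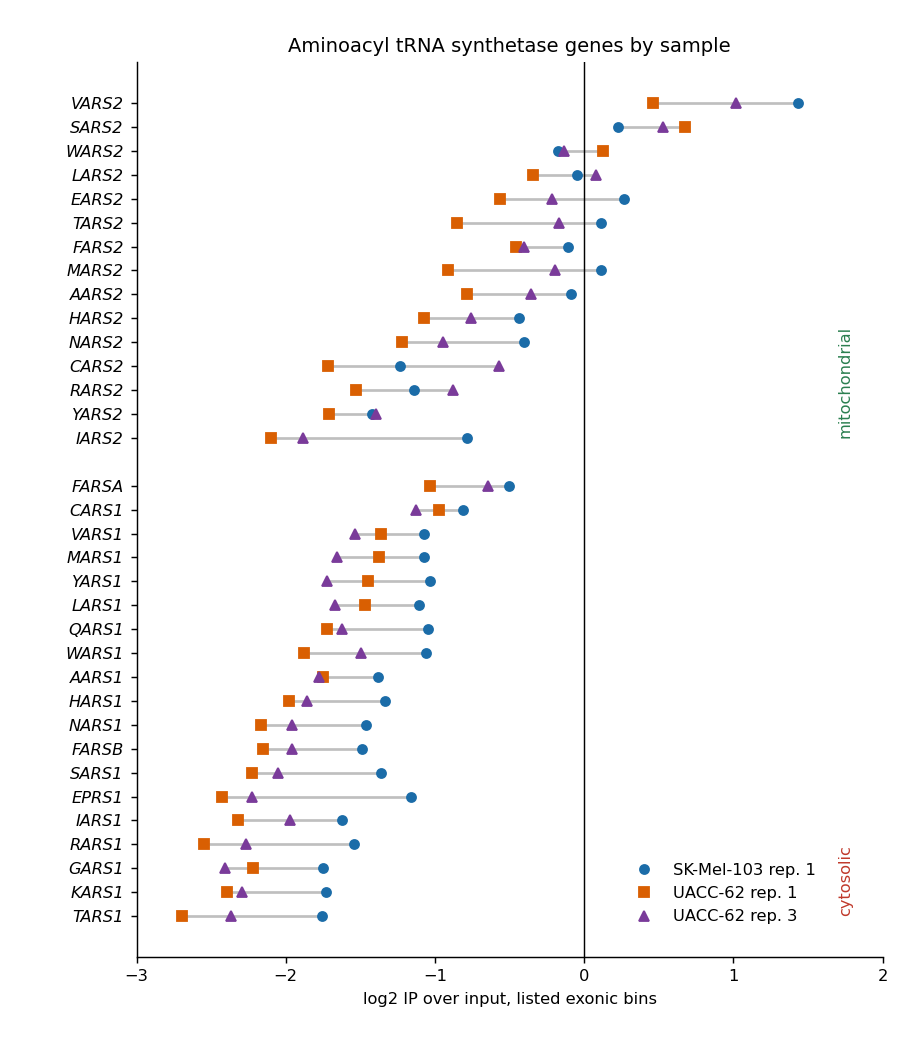
Log2 IP over input (x axis) of the 34 synthetase genes with listed bins in all 3 samples, ordered by mean within the cytosolic and mitochondrial classes, with 1 point per sample and a grey line over their range. All cytosolic points lie left of 0, and the mitochondrial points spread from -2.10 to 1.43.

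The difference between the classes, cytosolic minus mitochondrial median, was -1.23, -1.13 and -1.50 (UACC-62 mean -1.31 ± 0.26, SD, n = 2), larger than the spread of the replicates. The classes also differed in the input. The median input level was 37.5, 39.4 and 56.1 RPKM for cytosolic genes and 2.97, 4.39 and 2.15 for mitochondrial ones, a ratio of 12.6, 8.99 and 26.1. In the IP the corresponding ratio was 10.9, 6.91 and 11.3. Cytosolic synthetase genes thus had more listed reads per kb of exon than mitochondrial ones in both fractions, and by less in the IP. Reads were counted in listed bins only but divided by the full exon length. The median number of listed bins was 74, 62 and 77 in cytosolic and 20, 10 and 16 in mitochondrial genes. Abundance and the number of passing bins can therefore not be told apart in these levels.

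Across all genes, log2 IP over input was lower where input was higher, with a Spearman coefficient across genes of -0.63, -0.59 and -0.60. The 2 quantities share the input count, and genes are not independent replicates, so no p is given. Each gene was therefore also set against the median of all genes in the same decile of input level of its sample. On that scale, added after the values had been seen, the cytosolic median was -0.39, -0.48 and -0.54 and the mitochondrial -0.13, -0.19 and -0.37. The difference between the classes shrank to -0.26, -0.29 and -0.17. In bins with at least 10 input reads, it was -0.18 in SK-Mel-103 and -0.27 ± 0.03 (SD, n = 2) in UACC-62, over 19 cytosolic and 8 mitochondrial genes.

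Against the same decile of input level, 17 of 19 cytosolic and 8 of 15 mitochondrial genes lay below the median in all 3 samples, against 33.2% of all genes. FARSB lay farthest below among the cytosolic genes, at -0.95, -1.22 and -1.02. FARSA was the only cytosolic gene above it in all 3, at 0.34, 0.22 and 0.29. On this scale the subunits of the phenylalanine enzyme thus stood at opposite ends of the class. Input level is per kb of merged exon, which was 6761 nt in FARSB, with 4972 nt of annotated 3′ UTR, and 2177 nt in FARSA. FARSB fell in deciles 7, 7 and 8 of input level and FARSA in deciles 9, 9 and 8. Whether exon length set part of their distance was not tested. MARS1, at 0.08, -0.12 and -0.53, was the other gene not below in every sample.

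**Figure D3:**
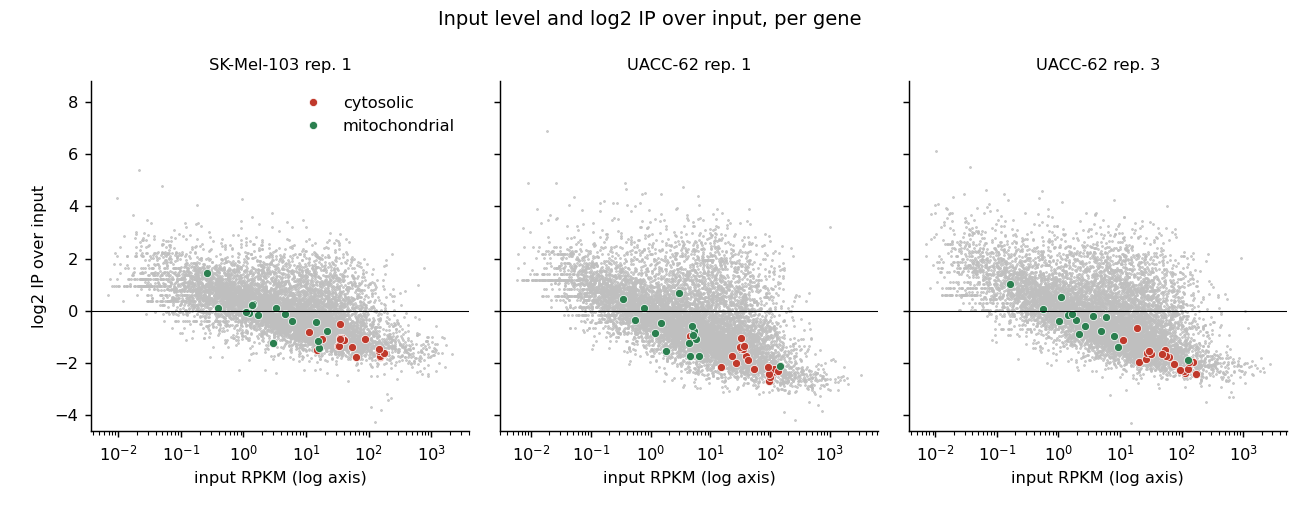
Log2 IP over input (y axis) against input RPKM (log x axis) for each gene with bins in all 3 lists, 1 panel per sample, with all protein-coding genes in grey, cytosolic synthetases in red and mitochondrial ones in green. Genes without input reads have no place on the log axis and are not drawn. Both classes follow the falling cloud of all genes, and the cytosolic genes sit at its high input end.

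The genes also differed in where along the transcript the reads lay. The 3′ UTR held 28.6%, 24.8% and 27.2% of the IP reads of cytosolic synthetases and 36.6%, 30.4% and 33.7% of those of mitochondrial ones, but 73.2%, 78.8% and 76.7% over all protein-coding genes. The 3′ UTR accounted for 27.6% and 37.9% of the annotated exonic length of cytosolic and mitochondrial genes. It accounted for 48.4% over all 19834 annotated protein-coding genes, a larger set that includes genes without listed bins. In the input, it held 29.3%, 24.4% and 25.7% of the reads of cytosolic genes, 33.5%, 23.9% and 24.0% of those of mitochondrial genes and 54.7%, 54.6% and 56.5% over all genes. IP reads of cytosolic synthetases were thus spread over the transcript much as exonic length and input were. The mitochondrial shares rested on IARS2, which held 23.0%, 56.8% and 53.0% of the IP reads of its class. Without it, the 3′ UTR held 42.5%, 50.7% and 52.2% of the IP reads and 39.6%, 56.6% and 52.3% of the input reads of the other mitochondrial genes. In bins of more than 30 IP reads alone, the 3′ UTR share of cytosolic genes was 48.4%, 68.0% and 61.4%, beside 83.0%, 89.0% and 84.8% over all genes. The cytosolic shares rested on 92, 3 and 65 bins, so that of UACC-62 replicate 1 says little.

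**Figure D4:**
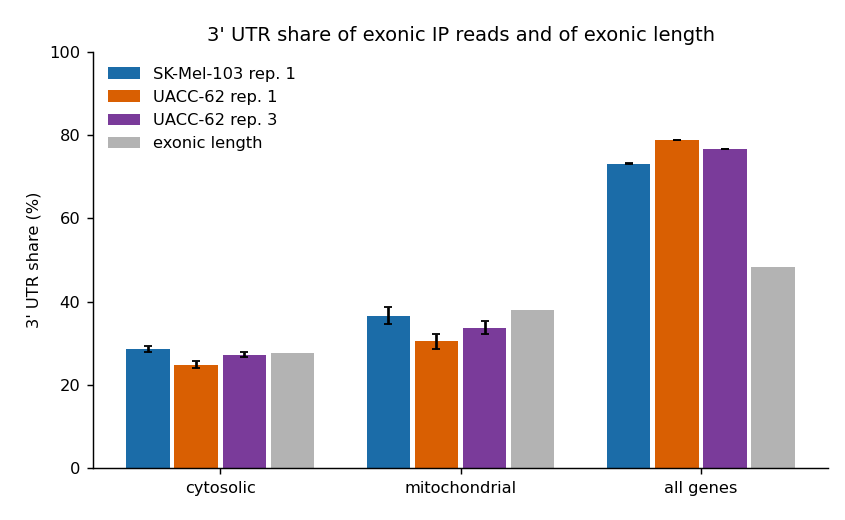
Share of exonic IP reads in the 3′ UTR (y axis, percent) for cytosolic synthetases, mitochondrial synthetases and all protein-coding genes, with coloured bars per sample, Wilson 95% intervals of counting error, and grey bars for the 3′ UTR share of exonic length. The synthetase bars stay between 24.8% and 36.6%, near their length share, and those of all genes exceed 73%. The mitochondrial bars include IARS2, without which they would stand at 42.5%, 50.7% and 52.2%. The grey bar of all genes covers all 19834 annotated protein-coding genes, also those without listed bins.

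Within a gene, log2 IP over input of the 3′ UTR minus that of the coding region had a median of -0.27, -0.14 and -0.10 over the 19 cytosolic genes and of -0.31, -0.34 and -0.22 over 10 mitochondrial genes with both. It was 0.30, 0.28 and 0.23 over 7308 genes. With bins of both kinds of annotation counted as coding, the cytosolic median was -0.06, -0.12 and -0.07 and that over all genes 0.31, 0.30 and 0.24, so that the size of the cytosolic difference in SK-Mel-103 depended on this choice. In MARS1, 76 of the 89 SK-Mel-103 bins fell in an annotated 3′ UTR of some transcript. The 3′ UTR was lower in all 3 samples in 11 of 19 cytosolic and in 5 of 10 mitochondrial genes, against 16.3%. It was higher in all 3 in 1 of 19 and 1 of 10, against 44.5%. With the coding region first, it was lower in 10 and higher in 2 of the 19. The gene with the higher 3′ UTR was WARS1 among the cytosolic ones, at 0.56, 0.49 and 0.67, and IARS2 among the mitochondrial ones, at 0.11, 0.13 and 0.31. The 3′ UTR of KARS1 lay lower by -0.45, -0.56 and -0.50, and that of SARS1 by -0.77, -0.40 and -1.04. LARS1, with its common 3′ UTR peak, had 0.41, -0.02 and 0.54.

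The 7 members of the multisynthetase complex in the set, EPRS1, IARS1, LARS1, MARS1, QARS1, RARS1 and KARS1, had medians of -1.16, -2.32 and -1.97. The 12 cytosolic genes outside it had -1.35, -1.93 and -1.82. The complex was thus higher in SK-Mel-103 and lower in both UACC-62 samples, by less than the range within either group. Of 18 other genes of tRNA charging and its surroundings, 14 had bins in all 3 lists, of which 12 lay below 0 and 6 below -1 in all 3 samples, against 43.8% and 13.5% of all genes. The lowest were EEF1A1, the elongation factor that carries charged tRNA to the ribosome, at -1.29, -2.74 and -2.13, and the scaffold AIMP2, at -1.19, -2.36 and -2.32. The highest were AARSD1, at -0.49, -0.70 and 1.18 with all its bins shared with another gene, and the D-aminoacyl-tRNA deacylase DTD2, at -0.12, -0.57 and -0.11.

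A common peak was found in 4 of the 18, against 13.1% of all genes, with 38 bins in EEF1A1 and 2 each in ATF4, TUFM and EEF1E1. ATF4, the transcription factor that induces synthetase genes under amino acid shortage, had log2 values of -1.19, -1.91 and -1.12. TUFM, the mitochondrial counterpart of EEF1A1, had -1.09, -1.41 and -1.68. EEF1E1, a scaffold of the complex, had -0.16, -0.71 and -0.16. As in LARS1, all these common peaks lay in genes below scaled input.

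Between the cell lines, the input level in listed bins differed for some members. The input level was over 2-fold higher in both UACC-62 replicates than in SK-Mel-103 in 2 cytosolic genes (EPRS1 and WARS1) and 3 mitochondrial genes (IARS2, EARS2 and TARS2), against 18.1% of all genes. It was under 0.5-fold in 0 cytosolic and 4 mitochondrial genes (RARS2, FARS2, HARS2 and LARS2), against 20.9%. IARS2 had input levels of 21.9, 143 and 126 RPKM, which was 6.51-fold and 5.76-fold the SK-Mel-103 level. RARS2 had 15.4, 1.84 and 2.15, or 0.119-fold and 0.139-fold. EPRS1 had 35.5, 97.1 and 129. The number of listed bins also differed, at 65, 104 and 115 in IARS2 and 37, 7 and 12 in RARS2. Out of 19 cytosolic and 15 mitochondrial genes, the counts of higher and lower genes lay near or below the shares of all genes. They are therefore not read as a trait of the synthetases. SK-Mel-103 had 1 sample, and these differences were not tested.

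**Figure D5:**
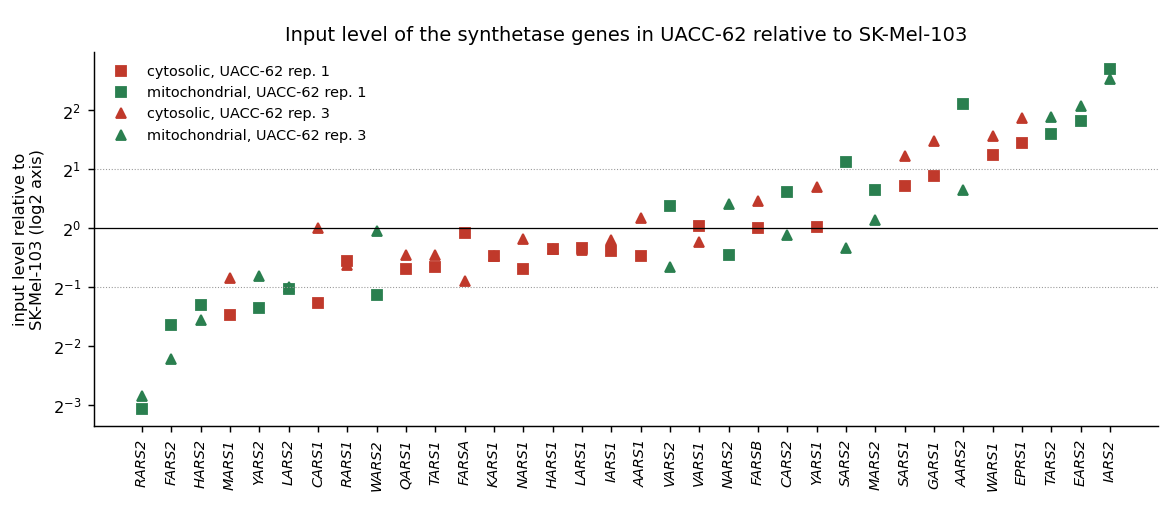
Input level of each synthetase gene in the UACC-62 replicates relative to SK-Mel-103 (log2 y axis), ordered by the mean of both, with squares for replicate 1, triangles for replicate 3, red for cytosolic and green for mitochondrial enzymes, and dotted lines at 0.5-fold and 2-fold. RARS2 is lowest, at 0.119-fold and 0.139-fold, and IARS2 highest, at 6.51-fold and 5.76-fold.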

How the data were processed

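Single-end reads were aligned by the authors to GRCh37 (TopHat, first-strand setting, up to 20 hits per read), and Piranha was run in 20-bp bins with input as covariate. The submitters' notes name TopHat2 2.0.4, Bowtie 0.12.7 and SAMtools 0.1.16. The deposited counts are unnormalized IP reads per bin, whole numbers. The deposited p-value of a bin comes from Piranha. The authors also gave the input covariate of each bin as a ratio, set to 0.01 where a bin had no input. Whole input reads were recovered from its steps, all within 0.05 of a whole number, and summed to 8453517, 10161917 and 8900292 reads in the 3 lists.

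Bins were assigned by their centre to exons of protein-coding transcripts (GENCODE version 44 on GRCh37) on the reverse of the listed strand, which gave 1924 cytosolic and 660 mitochondrial bins, against 7 and 7 on the listed strand. Regions were taken in the order 3′ UTR, coding, 5′ UTR, with the coding region first as an alternative. Log2 IP over input used a pseudocount of 1 read and the totals of the lists. The lists hold passing bins only and genes are not replicates, so no test was run, and values are given per sample and as mean ± SD of 2 UACC-62 replicates. Intervals are exact binomial or Wilson, at 95%.

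All 35 members are named, with full values for those with a common peak and the 4 highest and 4 lowest of each class by mean. The members and lists were chosen with earlier results of these data known. Annotated pseudogenes carry the names of 11 members (14 loci), so reads of these members may in part be placed elsewhere. IgG pulldowns were not analysed here. Alternatives covered read, p-value and input filters, scaling, pseudocount, region, shared bins, strand, GARS1 and KARS1, and each UACC-62 replicate. Recovery of input reads, placing of bins in genes and the log2 ratio were tested on simulated data. The other steps and the selection of bins by the caller were not simulated. Python 3.11.15 was used with scipy 1.17.1, pandas 2.3.3, numpy 2.4.6 and matplotlib 3.10.9.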

Additional observations from a re-analysis of the deposited data

Results flagged for a closer look

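In 3 mitochondrial genes log2 IP over input lay above 0 in SK-Mel-103 and below 0 in both UACC-62 replicates, and the difference was not tested. SK-Mel-103 exceeded the UACC-62 mean by 0.65 in EARS2, 0.66 in MARS2 and 0.62 in TARS2. EARS2 had 0.26, -0.56 and -0.22, MARS2 0.11, -0.91 and -0.20, and TARS2 0.11, -0.85 and -0.17, in the sample order of the report. The median of all genes was likewise higher in SK-Mel-103, at -0.07 beside -0.42 and -0.21. TARS2 rested on 13, 20 and 51 IP reads. In SK-Mel-103 the exact 95% intervals were -0.18 to 0.73 (EARS2), -0.30 to 0.54 (MARS2) and -1.18 to 1.56 (TARS2), and all held 0. The intervals of UACC-62 replicate 3 also held 0 in these genes, and those of replicate 1 lay below 0. The share of all genes with the same signs is not given here, so the count is not read as a trait of the class. No group held enough samples for a check of single outlying samples.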

How the results depend on the processing

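The cytosolic minus mitochondrial difference stayed below 0 in 22 of 22 values under the alternatives that could change it, leaving aside the scalings, which shift all genes alike, with its lowest and highest values without 1 UACC-62 replicate at -1.50 and -1.13. Each value already sets an IP against the input of the same replicate. No paired analysis was possible because a replicate block enters a fitted test, and no result here comes from one. It moved to -0.91 (p-value under 0.01) and -0.94 (coding bins) in SK-Mel-103, and in SK-Mel-103 and UACC-62 to -0.55 and -0.91 (bins in all 3 lists), -0.18 and -0.27 (at least 10 input reads) and -0.26 and -0.23 (same decile of input level), the last pair of settings having been chosen after seeing the data.

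The cytosolic median, in the same order, was -1.09 and -1.82 (p-value under 0.01), -1.15 and -1.73 (totals of exonic bins), -0.96 and -1.49 (no scaling), -1.57 and -2.05 (3′ UTR bins), -1.44 and -2.09 (bins in all 3 lists), -1.16 and -1.83 (without GARS1 and KARS1), -1.62 and -2.10 (at least 10 input reads) and -0.39 and -0.51 (same decile). It was -1.18 in SK-Mel-103 with coding bins and -1.81 in UACC-62 with bins of more than 30 IP reads, which left 2 cytosolic genes and no mitochondrial gene, so no value of the latter was had. Without 1 UACC-62 replicate it was -1.98 or -1.85. The mitochondrial median of SK-Mel-103 turned to 0.074 with totals of exonic bins and to 0.27 without scaling, and was -0.46 with 3′ UTR bins, -0.90 with bins in all 3 lists and -1.44 with at least 10 input reads. That of UACC-62 was -0.18 without scaling, -1.18 with bins in all 3 lists and -1.82 with at least 10 input reads, and -0.85 or -0.35 without 1 replicate. The median of all genes moved as well. In the 3 samples it was -0.47, -0.89 and -0.72 with bins in all 3 lists and -1.22, -1.54 and -1.51 with at least 10 input reads. The cause of these moves was not tested.

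Genes with a common bin numbered 19 cytosolic and 11 mitochondrial without a read filter. Cytosolic genes with a common peak numbered 0 at more than 100 IP reads and 0 on the listed strand. The cytosolic 3′ UTR share was 22.3% and 22.7% in SK-Mel-103 and UACC-62 with the coding region first. In bins of more than 30 IP reads it was 48.4% and 64.7%, and the mitochondrial share in UACC-62 was 63.9%. The 64.7% rested on 3 and 65 bins in replicates 1 and 3, and the 63.9% on 3 and 6 bins of IARS2. Without IARS2, a choice made after seeing the data, the mitochondrial share was 42.5% and 51.5%. Without 1 UACC-62 replicate the shares were 24.8% to 27.2% and 30.4% to 33.7%. Of single genes with 1 sign in all 3 samples, 277 of 283 values kept their direction. The mean of FARS2 turned to 0.033 (p-value under 0.01) and 0.086 (no scaling), of AARS2 to 0.0016 (no scaling), of SARS2 to -0.20 (3′ UTR bins) and -0.41 (bins in all 3 lists), and of FARSA to 0.28 (same decile). Low read counts limit the mitochondrial genes, with a median of 6, 6 and 6 IP reads per listed bin.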

Other observations

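EPRS1 and IARS2, the cytosolic and mitochondrial genes whose UACC-62 input level was highest relative to SK-Mel-103 within their classes, are neighbours on chromosome 1, 47.6 kb apart and on opposite strands. Their UACC-62 input levels were 2.73-fold and 3.64-fold the SK-Mel-103 level in EPRS1 and 6.51-fold and 5.76-fold in IARS2. Log2 IP over input was lower in UACC-62 in both, at -1.16 beside -2.43 and -2.23 in EPRS1 and -0.79 beside -2.10 and -1.89 in IARS2. This was not particular to the pair. Every cytosolic gene was lower in both UACC-62 replicates, and the median of all genes was -0.07 in SK-Mel-103 beside -0.42 and -0.21. The pair was noticed after the values had been seen, and the difference between the lines was not tested.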
